A study of Homo sapiens with 31 samples.

Results

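The zinc finger genes of human chromosome 19 were examined as a group in ChIP-seq peak lists of the transcription factor EVI1 and its corepressor CTBP2. Members were the protein-coding genes of chromosome 19 in the GENCODE annotation of hg19 whose symbol is ZNF followed by a number and at most 1 letter. There were 246 such genes among 20162 protein-coding genes, and the other 1234 protein-coding genes of chromosome 19 served as the comparison. A further 262 ZNF genes lie on other chromosomes. Since the rule used only symbol and position, no peak value chose the members.

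Most of these genes encode C2H2 zinc finger proteins with an N-terminal KRAB domain. KRAB zinc finger proteins bind DNA, often in transposable elements, and recruit TRIM28, the scaffold that brings the histone methyltransferase SETDB1 and thereby H3K9me3. The genes themselves arose by tandem duplication, and their long 3′ exons, which encode the fingers, are known in many cell types to carry H3K9me3 deposited with ZNF274 and TRIM28. EVI1, itself a zinc finger protein, recruits CTBP2 through a short PLDLS motif.

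The study asked whether a competitor with 4 PLDLS repeats (4× PLDLS) removes CTBP2 from EVI1 binding sites. Peak lists of 13 libraries among the 31 samples of the series were used here, and most came from MUTZ3, a human acute myelomonocytic leukemia line whose chromosome 3 rearrangement activates EVI1. The inducible experiment used MUTZ3 carrying doxycycline (dox)-inducible pCW-4xPLDLS as a bulk lentivirally transduced population, with dox for 72 h or without. It held 2 CTBP2 and 2 EVI1 libraries per condition, so its untreated controls carried the construct too. The remaining lists were EVI1 and CTBP2 of unmodified MUTZ3 (1 library each), CTBP2 of MUTZ3 with retroviral p50MX 4× PLASS, a control with the motif mutated (2 libraries), and CTBP2 of MOLM1 without dox (1 library). MOLM1 is a blast crisis chronic myeloid leukemia line, here 1 clone with a tetracycline-inducible hairpin against EVI1. The lists held 6688 to 72214 peaks. The number of reads behind each was not in the files, so depth is unknown, and the 4× PLASS replicates differed in size (6688 and 31310 peaks).

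The 246 genes lay in 16 clusters when neighbours were joined up to 1 Mb apart. Of the 245 whose reading frame could be translated, 194 held a KRAB pattern, and the proteins had a median of 12 fingers, up to 36 in ZNF208. The last coding exon held 99.1% of all fingers. The last exon of the canonical transcript had a median length of 3301 bp, against 727.5 bp for the other chromosome 19 genes. Promoters of the group had a median CpG observed-to-expected ratio of 0.711 within 500 bp of the start site (TSS), against 0.654 for the other genes, and 25 members shared their promoter with a non-member.

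The 200 bases before the TSS are shown for promoters whose values carry the results (hg19, 5′ to 3′ on the gene's strand). Capitals mark matches on either strand. The motifs searched were CCGGAAG, the core of sites bound by ETS factors; for EVI1, the letters AAGATAA from the site of its first zinc finger domain, together with GATGAG from that of its second; the box bound by NF-Y, written CCAATCA; finally the letters TCTGGGAA from the site of ZNF143. The last 2 were chosen after sequences of these promoters had been seen. No printed window overlaps matches of different motifs. From the cluster at chr19:19779648-24269989, ZNF726 (chr19:24097488-24097687 (+)), ZNF430 (chr19:21203263-21203462 (+)), ZNF431 (chr19:21324643-21324842 (+)), ZNF675 (chr19:23870015-23870214 (-)) and ZNF708 (chr19:21512213-21512412 (-)) are given to show the shared CCAAT boxes. In ZNF726 and ZNF431 CCAATCA began 87 and 58 bases before the TSS and the ETS match 24 bases before it, and in ZNF430 these distances were 86, 57 and 23 bases.
ZNF726: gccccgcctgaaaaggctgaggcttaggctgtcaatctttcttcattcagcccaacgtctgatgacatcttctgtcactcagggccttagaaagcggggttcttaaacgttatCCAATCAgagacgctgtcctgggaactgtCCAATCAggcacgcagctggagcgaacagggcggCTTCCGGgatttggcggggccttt
ZNF430: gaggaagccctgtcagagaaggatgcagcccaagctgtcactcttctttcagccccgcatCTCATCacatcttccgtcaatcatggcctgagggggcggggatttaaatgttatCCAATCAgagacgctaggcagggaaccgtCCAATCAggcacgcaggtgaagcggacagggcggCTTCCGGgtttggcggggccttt
ZNF431: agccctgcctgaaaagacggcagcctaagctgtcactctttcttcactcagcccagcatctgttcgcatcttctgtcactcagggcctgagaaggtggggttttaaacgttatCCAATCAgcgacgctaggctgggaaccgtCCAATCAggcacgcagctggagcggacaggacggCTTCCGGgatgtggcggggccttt
ZNF675: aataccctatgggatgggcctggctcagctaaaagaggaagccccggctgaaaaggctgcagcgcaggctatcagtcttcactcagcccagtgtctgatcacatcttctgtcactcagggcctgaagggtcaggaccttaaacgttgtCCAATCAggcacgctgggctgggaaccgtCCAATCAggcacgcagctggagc
ZNF708: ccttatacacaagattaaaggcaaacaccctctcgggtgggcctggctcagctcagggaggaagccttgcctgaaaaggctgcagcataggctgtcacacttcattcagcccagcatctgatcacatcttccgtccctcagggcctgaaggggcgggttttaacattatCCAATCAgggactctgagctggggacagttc

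From the cluster at chr19:44037340-45579736, ZNF223 (chr19:44555989-44556188 (+)), with the strongest CTBP2 promoter peak of any member in the inducible lists, ZNF221 (chr19:44455180-44455379 (+)) and ZNF112 (chr19:44860833-44861032 (-)) carried TCTGGGAA in place of CCAATCA.
ZNF223: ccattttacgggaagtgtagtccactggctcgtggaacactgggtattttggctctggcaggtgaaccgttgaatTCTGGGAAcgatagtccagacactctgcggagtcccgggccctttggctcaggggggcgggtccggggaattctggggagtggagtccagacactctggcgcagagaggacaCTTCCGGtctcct
ZNF221: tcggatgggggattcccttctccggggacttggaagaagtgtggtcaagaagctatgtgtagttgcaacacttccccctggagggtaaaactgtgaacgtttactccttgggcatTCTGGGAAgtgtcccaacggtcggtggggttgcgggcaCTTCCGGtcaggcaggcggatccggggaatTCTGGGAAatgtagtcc
ZNF112: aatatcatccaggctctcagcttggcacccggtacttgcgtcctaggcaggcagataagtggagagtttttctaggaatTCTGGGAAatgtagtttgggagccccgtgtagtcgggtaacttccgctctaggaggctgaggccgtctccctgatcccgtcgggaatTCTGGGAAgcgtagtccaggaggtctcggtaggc

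Genes outside these clusters are given for contrast: ZNF175 (chr19:52074336-52074535 (+)), with a promoter peak in all 13 lists, ZNF416 (chr19:58090280-58090479 (-)) and ZNF557 (chr19:7069514-7069713 (+)), with strong EVI1 peaks, and ZNF304 (chr19:57862439-57862638 (+)), whose peaks of both factors were called without dox and not with it.
ZNF175: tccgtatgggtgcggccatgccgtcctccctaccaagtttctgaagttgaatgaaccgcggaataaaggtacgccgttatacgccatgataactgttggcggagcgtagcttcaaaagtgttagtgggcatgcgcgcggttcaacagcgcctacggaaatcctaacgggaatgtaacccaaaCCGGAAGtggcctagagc
ZNF416: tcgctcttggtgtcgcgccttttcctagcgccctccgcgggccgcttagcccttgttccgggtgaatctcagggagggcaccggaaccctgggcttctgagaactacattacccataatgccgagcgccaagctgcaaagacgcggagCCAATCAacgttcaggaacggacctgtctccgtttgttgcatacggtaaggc
ZNF557: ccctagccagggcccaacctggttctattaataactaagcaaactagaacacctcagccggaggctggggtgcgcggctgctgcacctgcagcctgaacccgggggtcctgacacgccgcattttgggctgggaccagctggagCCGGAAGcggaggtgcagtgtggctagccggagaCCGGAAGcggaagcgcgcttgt
ZNF304: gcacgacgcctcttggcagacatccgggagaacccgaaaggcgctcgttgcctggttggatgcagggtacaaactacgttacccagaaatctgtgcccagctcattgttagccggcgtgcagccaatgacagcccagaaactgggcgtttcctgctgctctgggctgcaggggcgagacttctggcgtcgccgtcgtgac

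In the 201-bp windows centred on the TSS, CCGGAAG was found in 41.5% of the members, 11.4% of the other chromosome 19 genes and 11.2% of all protein-coding genes. CCAATCA was found in 28.0%, 5.59% and 5.84%, and TCTGGGAA in 15.04%, 1.78% and 1.63%, respectively. The letters of the EVI1 sites were rare there: GATGAG stood in 3.25% of members and 6.65% of other genes, and AAGATAA in 0% and 0.324%. Windows of the same length around the EVI1 promoter summits of members held CCGGAAG in 23.6%, GATGAG in 7.14% and AAGATAA in 0.549%, against 12.9%, 9.45% and 1.02% in the other genes. Motifs followed the clusters. In wider windows of 1001 bp, where CCAATCA stood in 34.1% of members, 13.6% of other chromosome 19 genes and 13.1% of all genes, it was present in 36 of 37 promoters of the cluster of ZNF726 and in 23 of 25 of the cluster at chr19:11616654-12721734. TCTGGGAA (26.4%, 8.83% and 7.76% in these windows) stood in 19 of 24 promoters of the cluster of ZNF223. Within the cluster of ZNF726, CCAATCA stood in 22 of 22 promoters with EVI1 peaks in both untreated libraries and in 14 of the 15 others. Over all members, CCAATCA and CCGGAAG were not more frequent where EVI1 was called, whereas TCTGGGAA was, without a test. In the 1001-bp windows CCAATCA stood in 33.5% of the members with EVI1 in both untreated libraries and in 34.5% of those with neither factor there, CCGGAAG in 52.2% and 58.6%, and TCTGGGAA in 28.6% and 18.97%. In the other chromosome 19 genes these shares were 14.7% and 11.9% for CCAATCA, 31.9% and 13.2% for CCGGAAG, and 8.49% and 8.64% for TCTGGGAA.

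EVI1 and CTBP2 peaks were frequent at the promoters of the group. A peak counted for a promoter when its summit lay within 1 kb of the TSS. EVI1 peaks were called in 186 and 194 of the 246 genes in the untreated inducible libraries (75.6% and 78.9%) and in 190 and 181 with dox (77.2% and 73.6%). For CTBP2, 195 and 164 genes had a peak without dox (79.3% and 66.7%), and 104 and 72 with dox (42.3% and 29.3%). Both dox libraries of CTBP2 lay below both untreated ones, whereas the EVI1 groups overlapped. A peak in both untreated libraries was found in 182 members for EVI1 (74.0%, against 55.5% of all protein-coding genes) and in 163 for CTBP2 (66.3%, against 52.3%). Among the other chromosome 19 genes these shares were 59.2% and 50.6%.

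Within each of the 8 inducible libraries the promoter share of the group was above that of the other chromosome 19 genes. The difference was 12.7 ± 2.63 percentage points (SD, n = 8 libraries), from 65.3% against 52.7%, with a range of 8.60 to 16.5 (higher in 8 of 8 libraries; exact two-sided sign-flip permutation test, p = 0.0078, the smallest 8 libraries allow). The libraries share cells and gene sets, so this p covers their spread only. Against the ZNF genes of other chromosomes, a comparison added after the data were seen, the difference was −2.93 points, lower in 8 of 8 libraries (exact permutation p = 0.0078). That p, too, covers the spread between libraries only, not the spread between genes. The ZNF genes of other chromosomes had EVI1 peaks in both untreated libraries in 76.0% and CTBP2 peaks in 72.1%. The higher promoter share was thus not particular to chromosome 19.

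**Figure D1:**
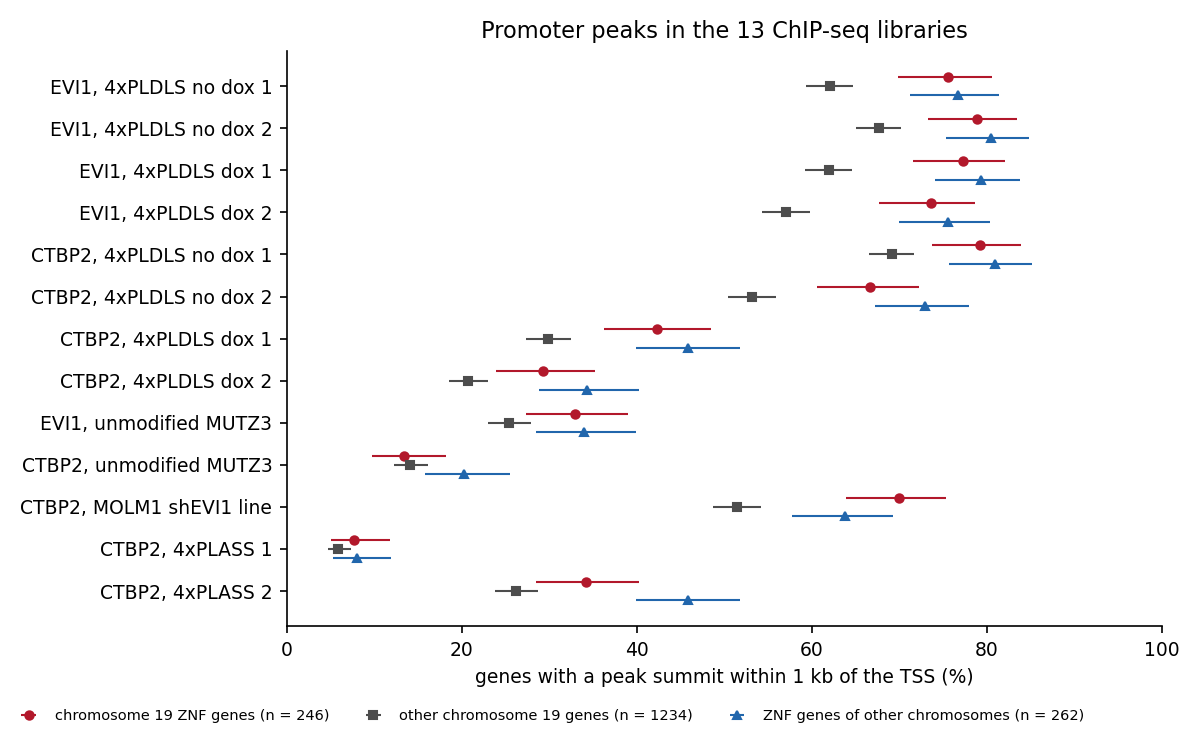
Share of genes with a peak summit within 1 kb of the TSS (x axis, percent) in each of the 13 libraries, for the 246 ZNF genes of chromosome 19, the 1234 other chromosome 19 genes and the 262 ZNF genes of other chromosomes; bars are 95% Wilson intervals over genes. ZNF genes sit above the other chromosome 19 genes in the 8 inducible libraries, and CTBP2 stands at 79.3% and 66.7% without dox and at 42.3% and 29.3% with dox, while EVI1 lies between 73.6% and 78.9%.

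The difference from the other chromosome 19 genes varied with the CpG content of the promoter. Genes were divided at the CpG ratios that cut the members into 3 equal groups of 82. In the lowest group, 52 of 82 members (63.4%) and 221 of 611 other genes (36.2%) had EVI1 in both untreated libraries, and 58.5% and 31.4% had CTBP2. In the middle group the EVI1 shares were 80.5% and 75.0%, and in the highest 78.0% and 85.3%. Over the 8 inducible libraries, members minus other genes was 23.99 ± 4.96 points in the lowest group (positive in 8 of 8), 0.536 ± 5.34 in the middle (positive in 5) and −2.84 ± 7.91 in the highest (positive in 2). The 2 positive values in the highest group were those of the CTBP2 dox libraries, 9.01 and 10.1. In the middle group the CTBP2 dox libraries had −5.88 and −8.02, so the means over 8 libraries mix conditions. With the other genes weighted to the CpG groups of the members, also chosen after the data were seen, the difference was 7.23 points instead of 12.7. Whether CpG content accounts for the remainder was not tested.

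In the other libraries, values of the group ranged widely with list size. EVI1 in unmodified MUTZ3 had a promoter peak in 32.9% of members (95% Wilson interval, 27.4 to 39.0%) and 25.4% of other chromosome 19 genes, and CTBP2 in 13.4% and 14.1%. In MOLM1, CTBP2 peaks were called at 69.9% of member promoters and 51.5% of the others. The 4× PLASS libraries gave 7.72% and 34.1% for members and 5.83% and 26.2% for the others. CTBP2 of unmodified MUTZ3, with a single crosslink per the labels, was the 1 list of 13 in which members were not above the other chromosome 19 genes. Members were above them in the shorter 4× PLASS list of 6688 peaks. These intervals treat genes as independent and cover counting error only.

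The untreated libraries gave no detectable preference for EVI1 over CTBP2 at these promoters. The share of members was 77.2% ± 2.30 (SD, n = 2) for EVI1 and 73.0% ± 8.91 for CTBP2, a difference of 4.27 points (exact two-sided permutation test over libraries, p = 1; 2 against 2 cannot go below 0.333). Without the second CTBP2 untreated library the difference was −2.03 points. Across untreated and dox libraries the means were 76.3% ± 2.26 and 54.4% ± 22.7 (n = 4 each), 21.95 points apart (exact permutation p = 0.143, where 0.0286 is the smallest possible). That value mixes the factors with the dox response of CTBP2, and without the first CTBP2 untreated library it was 30.3 points (exact permutation p = 0.0286).

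By gene, 157 members had both factors in both untreated libraries, 25 had EVI1 without CTBP2, 6 had CTBP2 without EVI1 and 58 had neither by this rule. The shares of all genes in these classes were not computed, so the counts describe the members alone. The 6 were ZNF350, ZNF420, ZNF543, ZNF587B, ZNF700 and ZNF776, and they had 1 untreated EVI1 library each, so they did not lack EVI1. Of all 13 lists, 12 members had a promoter peak in every one (4.88%, against 3.74% of all genes), and 35 had a promoter peak in none (14.2%, against 31.3%). The 12 were ZNF175, ZNF181, ZNF221, ZNF223, ZNF419, ZNF443, ZNF544, ZNF561, ZNF566, ZNF681, ZNF773 and ZNF799, with fold enrichments of 2.62 to 36.9. No peak in promoter or body was called in any list for 24 members, among them ZNF135, ZNF154, ZNF177, ZNF208, ZNF229, ZNF257, ZNF347 and ZNF404. The share of all genes without any such peak was not computed, so this count does not set the members apart.

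Where both factors were called, their summits lay close together. The median distance between the EVI1 and CTBP2 promoter summits of a member was 52.5 bp in the first replicate (n = 184) and 80.0 bp in the second (n = 161), against 86.5 and 83.5 bp in the other chromosome 19 genes. Fold enrichments of both factors were related across members, with a Spearman rho of 0.605 and 0.579, which is a description across genes of peaks at the same sites. The other chromosome 19 genes gave 0.568 and 0.586.

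The strongest EVI1 promoter peaks of the group are given as fold enrichment over input at the summit, as the peak caller reported it. ZNF726 had values of 49.8 and 71.9 for EVI1 in the untreated libraries and 31.3 and 24.6 with dox. Its CTBP2 values were 27.7 and 12.99 without dox and 4.65 and 3.46 with dox, where a peak was still called. ZNF675, an inhibitor of TRAF6 signaling, had EVI1 values of 50.3 and 69.1 without dox and 17.5 and 16.3 with dox. Its CTBP2 values were 30.6 and 23.6, then 5.30 in 1 dox library and no peak in the other. In ZNF430, EVI1 enrichment was 37.7 and 45.7 without dox and 35.1 and 25.1 with dox, and CTBP2 enrichment was 26.5 and 20.1, then 11.3 and 7.62. These 3 genes belong to 1 cluster, as does ZNF431, with 24.4 and 42.6 for EVI1 and 15.7 and 16.3 for CTBP2 without dox. Of the other highest EVI1 promoters, ZNF416 had 26.0 and 43.2, ZNF561 25.3 and 29.9, ZNF223 19.7 and 31.1, and ZNF557 19.2 and 31.1.

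CTBP2 was strongest at ZNF223, with 35.5 and 36.9 without dox and 11.7 and 19.4 with dox, and ZNF223 led the members in all 4 inducible CTBP2 lists. EVI1 at this promoter was 13.2 and 12.7 with dox. ZNF112, of the same cluster, had CTBP2 values of 32.5 and 17.4, then 11.2 and 8.97, and no peak in MOLM1. ZNF625 had 26.8 and 9.42 without dox and 4.65 in 1 of the dox libraries. ZNF160 had 21.8 and 14.8, then 5.98 and 6.98. These genes, like the EVI1 promoters above, were chosen for their untreated values, so lower values in other libraries are partly fixed by the choice.

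With dox, the CTBP2 promoter share of members was 35.8% ± 9.20 (n = 2), against 73.0% ± 8.91 without, a difference of −37.2 points (exact permutation p = 0.333, the smallest possible). For EVI1 it was 75.4% ± 2.59 against 77.2% ± 2.30, a difference of −1.83 points (exact permutation p = 0.667). The lists of CTBP2 were shorter with dox, at 24588 and 23878 peaks against 62232 and 56526 without. When each list was cut to its 23878 strongest peaks, which removes any loss common to all sites, the CTBP2 difference was −12.2 points. A shorter list and less CTBP2 on chromatin cannot be told apart, since depth is unknown.

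Of the 163 members with CTBP2 in both untreated libraries, 64 had it in both dox libraries (39.3%, against 45.6% of all such genes), 43 in 1 of them and 56 in neither (34.4%, against 28.7%). Both shares stood between those of all genes and those of the other chromosome 19 genes, of which 32.7% were in both and 41.2% in neither. For EVI1, 172 of 182 members kept the peak in both dox libraries (94.5%, against 93.1% of all such genes and 88.1% of the other chromosome 19 genes). Among the 56 members with no CTBP2 peak in dox, 50 had EVI1 in both untreated libraries and 44 still had it in both dox libraries. EVI1 was kept in 93.1% of all genes that had it without dox, whatever became of their CTBP2 peak. The share kept among all genes with no CTBP2 peak in dox was not computed, so these counts do not set the members apart.

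Counted by site, 58.9% and 40.5% of the untreated CTBP2 promoter sites of members overlapped a peak in the first and second dox library, against 51.0% and 36.5% for the other chromosome 19 genes and 63.4% and 50.6% for all genes. Members minus other chromosome 19 genes was 5.94 ± 2.74 points (SD over 2 libraries, no test), and with lists of equal size it was −1.61. The log2 ratio of member to other chromosome 19 promoter peaks was −1.74 ± 0.04 with dox and −2.08 ± 0.19 without for CTBP2, a difference of 0.34 (exact permutation p = 0.333), which was 0.054 with lists of equal size and 0.20 without the first CTBP2 untreated library, so these libraries could not show a response of members apart from that of the rest of the chromosome. For EVI1 the difference was 0.08 (exact permutation p = 0.333).

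Members whose CTBP2 peak stayed had higher CTBP2 enrichment to begin with. Their untreated mean fold enrichment had a median of 9.19 (4.41 to 36.2, n = 64), against 7.48 (n = 43) where the peak was called in 1 dox library and 6.26 (3.37 to 11.4, n = 56) where it was called in neither. The ranges overlapped. EVI1 enrichment followed the same order, with medians of 10.3, 8.03 and 6.73. Because a weaker peak is nearer the calling threshold, absence from a dox list and loss of binding cannot be told apart.

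Among members with no CTBP2 peak in dox, ZNF304, a KRAB protein known to direct silencing of the INK4-ARF locus, had 13.9 and 8.81 without dox. EVI1 there was 3.16 and 6.49 without dox and was not called in either dox library. Such absence of EVI1 from both dox libraries was found in 3 of the 182 members with EVI1 in both untreated libraries, ZNF304, ZNF577 and ZNF844. The matching share of all genes was not computed. ZNF20 had CTBP2 values of 13.3 and 8.59 without dox, and its EVI1 values were 10.5 and 12.3, then 4.41 and 5.58. ZNF530 had 12.9 and 7.90 for CTBP2, with EVI1 at 18.96 and 25.2, then 8.66 and 8.68. ZNF708, of the cluster of ZNF726, had 14.3 and 5.87 for CTBP2, with EVI1 at 14.4 and 28.5, then 10.5 and 8.22. ZNF569 and ZNF575 had CTBP2 peaks of 9.91 and 11.7, and 13.03 and 6.92. In these 5 genes EVI1 was called in both dox libraries while CTBP2 was called in neither.

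CTBP2 was still called in both dox libraries at ZNF175, known for repression of the HIV-1 promoter. Its CTBP2 values were 16.1 and 13.8 without dox and, lower, 10.8 and 12.6 with dox. EVI1 there was 7.45 and 9.22, then 9.30 and 9.94. ZNF439 had CTBP2 values of 15.8 and 8.16, then 10.9 and 6.74, so its groups overlapped. ZNF221 had 10.9 and 18.3, then 7.52 and 9.71. Together with ZNF223, ZNF430 and ZNF112 these had the highest CTBP2 enrichment with dox among the members called in all 4 libraries.

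Genes with known roles in the silencing pathway were present among the bound promoters. ZNF274, which directs SETDB1 to the 3′ ends of zinc finger genes, had EVI1 values of 10.1 and 16.7 without dox and 9.15 and 10.8 with dox. Its CTBP2 values were 9.65 and 5.04, then 4.10 in 1 dox library. ZNF91, a repressor of SVA elements, had EVI1 values of 12.2 and 23.6, then 17.8 and 13.4, and CTBP2 values of 7.65 and 7.55 without dox and no peak with it. ZNF93, a repressor of L1 elements, had EVI1 values of 11.4 and 11.7, then 13.4 and 10.8, and CTBP2 in 1 untreated library (6.63). ZNF224, first described as a repressor of the aldolase A gene, had CTBP2 values of 9.97 and 12.02, then 3.94 in 1 dox library. ZNF146, a protein made almost only of fingers, had CTBP2 values of 8.65 and 4.38, then 4.90 and 5.34, from peaks it shared with ZNF565. The untreated summits lay at 161 and 71 bp from the TSS of ZNF565 and at −602 and −512 bp from that of ZNF146, negative being upstream. Such peaks shared with another member in both untreated libraries were found for 8 of the 182 members with EVI1 and 6 of the 163 with CTBP2. The imprinted ZNF331 had a peak at the TSS of its canonical transcript in MOLM1 alone (5.77), and weak body peaks within chr19:54023884-54024792 in 5 MUTZ3 lists (3.06 to 4.23).

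Of 18 genes of the TRIM28 silencing pathway, 16 had EVI1 and 13 had CTBP2 in both untreated libraries, where 55.5% and 52.3% of all genes did. CTBP2 was called in both dox libraries for 5 of the 13, against 45.6% of all such genes (CBX3, DNMT1, HDAC2, SETDB1 and TRIM28) and in neither for 3, against 28.7% (ATF7IP, CBX1 and MORC2). TRIM28 itself, on chromosome 19, had EVI1 values of 11.1 and 13.1, then 8.17 and 7.83, and CTBP2 values of 8.73 and 7.43, then 3.30 and 2.99. Another 16 chromosome 19 genes were taken by the start of their symbol alone (ZFP, ZSCAN and the like). Of these, 6 had EVI1 and 4 had CTBP2 in both untreated libraries, against 55.5% and 52.3% of all genes. CTBP2 was called in both dox libraries for 1 of the 4, ZFP36, against 45.6% of all such genes.

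The 3′ exons, in contrast to the promoters, were almost free of peaks. A summit in the last exon and outside the 1 kb around the TSS was found in any of the 13 lists for 4 of 246 members (1.63%, against 12.5% of all protein-coding genes), 263 of 1234 other chromosome 19 genes (21.3%) and 24 of 262 ZNF genes elsewhere (9.16%). The last exons of members held 0 to 2 summits per list, with 0 in 6 of the 13, over 0.910 Mb. In the 8 inducible libraries the density was 1.098 ± 0.830 summits per Mb (SD), against 70.9 ± 37.7 in the other chromosome 19 genes, a difference of −69.8 (lower in 8 of 8 libraries; exact sign-flip permutation p = 0.0078). The other chromosome 19 genes were themselves dense in such summits, with 22.7 ± 10.7 per Mb over all protein-coding genes. ZNF genes of other chromosomes had 9.90 ± 3.74, and against these, a comparison added after the data were seen, the difference of members was −8.80 ± 3.65 per Mb, lower in 8 of 8 libraries (exact sign-flip permutation p = 0.0078). Both p-values cover the spread between libraries only. Leaving out exons within 5 kb of any TSS, members had 0 summits in 7 of the 8 libraries and 1 in the second CTBP2 dox library, while the other genes had 17 to 80 over a similar length (0.747 and 0.759 Mb).

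EVI1 and CTBP2 could not be separated at the 3′ exons of members. A peak was called in 0.610% of members per EVI1 library and 0.203% per CTBP2 library (n = 4 each; exact permutation p = 0.171), and the difference was 0 with the stricter q-value, with the fold limit, with lists of equal size and in the coding part. The 4 genes were ZNF844, ZNF507, ZNF766 and ZNF784, and none of their 3′ summits lay in the coding part of the last exon. Fingers encoded in earlier exons, as in ZNF536 and most of those of ZNF507, were not covered by this count. ZNF844 had its 3′ peak in 6 lists, with EVI1 values of 4.10 and 6.14 without dox and 7.53 and 3.62 with dox, CTBP2 at 5.32 in 1 untreated library and 14.03 in MOLM1. Its summits lay at chr19:12190809-12190952. The peak of ZNF507 (7.28, CTBP2 with dox), of ZNF766 (4.94, EVI1 without dox) and of ZNF784 (4.11, EVI1 with dox) was called in 1 list each.

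The sparse signal extended to the gene body outside the promoter. Density there was 7.48 ± 3.42 summits per Mb in members (2.86 to 13.2) and 51.0 ± 26.8 in the other genes (16.2 to 88.4), whereas within 1 kb of the TSS it was 354.8 ± 107 and 308.6 ± 114. Runs of 50 bases that occur once in the genome made up 95.9% of member promoters, 90.7% of bodies and 93.3% of last exons, against 94.4%, 91.0% and 95.2% in the other genes. The read length was 50 or 100 bases. Only exact matches were counted, so copies that differ by a few bases counted as unique. How well reads could be placed in each part was not tested. A body peak was found in any list for 89 members (36.2%, against 62.8% of all protein-coding genes), for 871 other chromosome 19 genes (70.6%) and for 126 ZNF genes elsewhere (48.1%).

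ZNF536, a regulator of neuronal differentiation and a single-gene cluster with its fingers outside the last exon, was the reverse of the group. It had no promoter peak in any list and 1 to 11 body peaks in each of the 13. At chr19:31045576-31046415, which held its strongest peak in all 4 untreated inducible libraries, EVI1 was 21.5 and 28.2 without dox and 11.9 and 20.0 with dox, and CTBP2 was 14.4 and 16.1, then 5.94 and 5.98. The EVI1 and the CTBP2 groups did not overlap there, in a region chosen for its untreated values. The strongest peak lay elsewhere in the gene in both CTBP2 dox libraries and in the first EVI1 dox library. ZNF444, ZNF490 and ZNF791 were the other members with a body peak in all 13 lists, the last 2 through the same peaks, since their genes overlap. Body peaks in every list were thus found for 4 of 246 members, a smaller share than 1455 of 20162 protein-coding genes. The counts were 105 of 1234 for other chromosome 19 genes and 12 of 262 for ZNF genes elsewhere.

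Occupancy differed between clusters, as a description. In the cluster of 25 genes at chr19:11616654-12721734, 92.0% had EVI1 and 92.0% had CTBP2 in both untreated libraries. In the cluster of ZNF726, with 37 genes, 22 had EVI1 (59.5%) and 16 had CTBP2 (43.2%), and 12 had no promoter peak in any list. Where EVI1 was called in this cluster its median enrichment was 14.2, against 7.75 over all members called. The cluster of 59 genes at chr19:55987984-58987719 had 43 genes with EVI1 and 38 with CTBP2, of which 20 had no CTBP2 peak in dox and 11 had it in both dox libraries. In the cluster of 24 genes around ZNF223, these counts were 3 and 10 of 20. Genes with a KRAB pattern had EVI1 in 72.2% and CTBP2 in 66.0%, and 43.8% of the latter had CTBP2 in both dox libraries. Those without it had 80.4%, 66.7% and 23.5% (8 of 34). Over all genes with CTBP2 in both untreated libraries, 45.6% had it in both dox libraries and 28.7% in neither. Genes with a KRAB pattern thus stood near the share of all genes, and the difference by KRAB pattern was not tested.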

How the data were processed

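ChIP-seq peaks of EVI1 (Cell Signaling antibody) and CTBP2 (BD antibody) from MUTZ3 and MOLM1 cells were used, with groups taken from the sample labels. The authors aligned reads to hg19 (Bowtie 1.1.1 in the processing notes) and called peaks with MACS2 2.1.2 for each library against input. The deposited values used were fold enrichment (a ratio to input), the −log10 p-value, which ranked peaks for lists of equal size and chose the summit of merged sites, and the −log10 q-value; the deposited score was not used. Crosslinking was with DSG and formaldehyde, except with a single crosslink for unmodified MUTZ3 CTBP2, per the labels; a list of the study's libraries gives a single crosslink for MOLM1 and 4× PLASS as well. Read counts per library were not in the files, so depth and its precision are unknown.

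Gene models were GENCODE release 44 lifted to GRCh37 (20162 protein-coding genes), and the canonical transcript gave TSS and last exon. Zinc fingers and KRAB patterns were found in translated canonical coding sequences instead of the RefSeq proteins first planned. Summits were assigned with Python 3.11.15, pandas 2.3.3 and scipy 1.17.1, and the counting was tested on simulated data. Groups were compared by exact permutation over libraries. Nothing says that replicates came from separate cultures, so p-values cover the spread between libraries, which may be technical. Named genes were the 8 highest by mean untreated enrichment for EVI1 and for CTBP2, the 6 highest with CTBP2 in neither dox library, the 6 highest by dox enrichment with CTBP2 in all 4 libraries, members with 3′ exon peaks, with peaks in all 13 lists or in none (up to 8 names), and 9 genes fixed by name, TRIM28 among them. Other genes named here, such as the 6 with CTBP2 without EVI1, were chosen after their values were seen. Members and lists were chosen with earlier results of these data known. Alternatives covered the q-value, fold and window limits, list size, the definition of a promoter peak, each library left out and the replicate block.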

Additional observations from a re-analysis of the deposited data

How the results depend on the processing

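Across 147 alternative settings of 11 results, 138 kept the direction and 5 gave a difference of exactly 0. In 128 the result kept the side of the 0.05 test threshold or stayed close to the value. Comparisons of 2 against 2 libraries cannot go below an exact permutation p of 0.333, so their side was fixed in advance. The CTBP2 dox difference thus counted as kept at −12.2 points with lists of equal size. Fixed thresholds were a q-value of 5 (−log10) and a fold of 5. The promoter excess over the other chromosome 19 genes was 9.92 to 18.5 points under the planned settings, and −2.93 against ZNF genes of other chromosomes. The 3′ exon density difference was −114 to −32.1 summits per Mb under the planned settings and −8.80 against ZNF genes elsewhere. The difference was 0 in 4 settings for 3′ exon peaks of EVI1 against CTBP2 and for the EVI1 dox comparison without the second EVI1 dox library. The CTBP2 kept-share difference was 2.82 with the stricter q-value, −1.61 with lists of equal size, 11.8 with sites of either untreated library and 9.56 with the replicate block, and 4.00 to 12.8 with a library left out. For EVI1 it was 4.09 with the stricter q-value, 3.40 with the fold limit, 0.193 with equal size, 4.55 with overlap, 5.91 with any TSS, 3.23 within 500 bp, 16.1 with either library and 10.7 with the replicate block, and 4.86 to 16.0 with a library left out. The log2 ratio difference was −0.020 for EVI1 and 0.054 for CTBP2 with equal size. EVI1 minus CTBP2 was −2.03 to 10.6 points without dox and 13.6 to 30.3 over both conditions with a library left out. The cause was not tested, except that equal size removes the weaker peaks of longer lists by construction.

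Replicate differences in promoter fold enrichment without and with dox were nearly uncorrelated (correlation 0.0756 for CTBP2 over 4806 genes and −0.0752 for EVI1 over 10426 genes). Only promoters called in all 4 libraries of a factor entered, and peak values vary between libraries. Whether the numbers pair the samples is therefore unknown. With the replicate block, the CTBP2 promoter difference of −37.2 points and that of EVI1 of −1.83 are the same by construction, and the exact permutation p was 0.5 and 1. With 2 libraries a group, no dox comparison could pass the threshold. Unknown depth limits every absence of a peak.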
